A study of Mus musculus with 6 samples.

Results

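The 10 genes described here encode enzymes and a receptor that handle excess glucose and its reactive by-products. They are Akr1b3, Sord and Khk of the polyol and fructose route, G6pdx, Pgd, Tkt and Taldo1 of the pentose phosphate pathway, Glo1 and Hagh of the glyoxalase system, and Ager, the receptor for advanced glycation end products. They were taken by symbol from the 45777 genes of the deposited table, and 10 of 10 were found and passed the filter on low counts.

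In the polyol route, aldose reductase uses NADPH to turn glucose into sorbitol, and sorbitol dehydrogenase turns sorbitol into fructose. The oxidative branch of the pentose phosphate pathway makes NADPH from glucose 6-phosphate, and its non-oxidative branch moves sugar carbons between pentose phosphates and glycolysis. Methylglyoxal forms from triose phosphates of glycolysis and modifies proteins, and the glyoxalases convert it to D-lactate with glutathione as cofactor, a defence for which astrocytes are known to be well equipped.

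The RNA came from brain cells of male Aldh1l1-creERT2; tdTomato fl/fl mice. Tamoxifen, given at 75 mg/kg on 5 days, labels their Aldh1l1-expressing cells, which are mostly astrocytes, with the red reporter tdTomato. When 8 weeks old, mice were given 1 injection of streptozotocin (STZ), which destroys insulin-producing beta cells and makes mice hyperglycemic, or of citrate buffer (vehicle), and tdTomato-positive cells were sorted 21 days later. Each sample pooled cells of 3 mice, and each group held 3 samples. Both groups carried the reporter and received tamoxifen, the sorted population depends on where the Aldh1l1 promoter drives the recombinase, and STZ-treated mice entered the hyperglycemic group by their blood glucose. In such bulk samples, fewer cells of a type and less RNA per cell cannot be told apart.

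Total counts per sample ranged from 52529048 to 58749115. Of the genes listed, 22337 were counted in every sample and entered edgeR's quasi-likelihood test. Summed astrocyte markers stood at 22863 to 26456 CPM (counts relative to the library's total) in vehicle and 22729.8 to 24614 CPM in STZ samples. Other cell types were also present in the samples: choroid plexus and ependymal markers summed to 5917 to 17548 CPM in vehicle and 9084 to 15577 CPM in STZ samples, and oligodendrocyte markers to 1319.7 to 3048 and 1487 to 3711 CPM. Microglia and macrophage markers summed to 488 to 719 CPM in vehicle and 461 to 678 CPM in STZ samples (3 higher and 7 lower in STZ). Endothelial markers were mostly higher in STZ (10 of 10, 53.4 to 187 CPM in vehicle and 181 to 333 CPM in STZ samples). So were pericyte and smooth muscle markers (6 of 7 higher, 136 to 182 and 175 to 229 CPM). Neutrophil and mast cell markers were too (8 of 8 higher, 140.3 to 795 and 487 to 1124 CPM). In each of these sums vehicle replicate 3 was above STZ replicate 3 (187 against 181, 182 against 175 and 795 against 487 CPM). The part of these cells in the results was not tested.

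The starts of the genes were searched for 3 short motifs, to show which of them hold the core of a known regulatory element. The letters were CACGTG, the E-box found in carbohydrate response elements, TGACNNNGC, the core of the antioxidant response element, and TGGAAA, the core of the tonicity element through which hypertonic medium is known to induce aldose reductase. RefSeq windows of 300 bases (250 before and 50 after a transcription start, GRCm38.p6, both strands) were given for 9 of the 10 genes, in 11 windows. Akr1b3 had no entry. CACGTG was in 1 of the 11 windows and in 7.15% of all 32851 windows, TGACNNNGC in 3 and in 12.4%, and TGGAAA in 1 and in 21.4%. Matches of different motifs did not overlap. The 30 bases around each match follow, 5′ to 3′ on the strand of the gene, with the match in capitals.
Khk, chr5:30921476-30921505, plus strand: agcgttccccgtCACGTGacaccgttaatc
G6pdx, chrX:74428918-74428947, minus strand: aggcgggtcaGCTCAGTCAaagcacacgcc
Pgd, chr4:149166060-149166089, minus strand: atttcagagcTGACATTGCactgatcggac
Hagh, chr17:24850677-24850706, plus strand: gtctaggtacTGACGCGGCgcggccgggtg
Glo1, chr17:30612750-30612779, minus strand: acaatggcattcTGGAAAatgtagtctcgc
The match of Khk, at chr5:30921488-30921493, starts 71 bases before the start of its window's transcript and lies within the span of longer Khk transcripts. The matches of Pgd and Hagh start 3 and 20 bases after the starts of their windows' transcripts. Both lie within the spans of their genes. The match of G6pdx reads on the opposite strand as the same core. The windows of Sord, Tkt, Taldo1 and Ager held none of the 3 motifs, and a match is a description of the letters, not of a bound site.

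The levels of the 10 genes were compared as TPM, transcript abundances scaled by gene length and library size. Sorted cells of both groups held most of these transcripts at high levels: over the 6 samples, Taldo1 stood at 269 ± 21.1 TPM (SD, n = 6) and Tkt at 246 ± 12.5 TPM, above 97.6% and 97.3% of the genes tested. The glyoxalases followed, with Glo1 at 204 ± 16.8 TPM and Hagh at 143 ± 6.87 TPM. G6pdx (84.5 ± 7.26 TPM), Akr1b3 (70.4 ± 3.28 TPM) and Pgd (58.7 ± 5.69 TPM) were in the middle of the order. Sord (36.5 ± 4.61 TPM) and Khk (35.5 ± 5.19 TPM) came next, and Ager was lowest at 3.72 ± 0.930 TPM, above 43.8% of the genes tested. Of the 9 neighbouring pairs in this order, the ranges over the 6 samples overlapped for Taldo1 and Tkt, for G6pdx and Akr1b3, and for Sord and Khk, and were apart for the other 6 pairs.

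**Figure D1:**
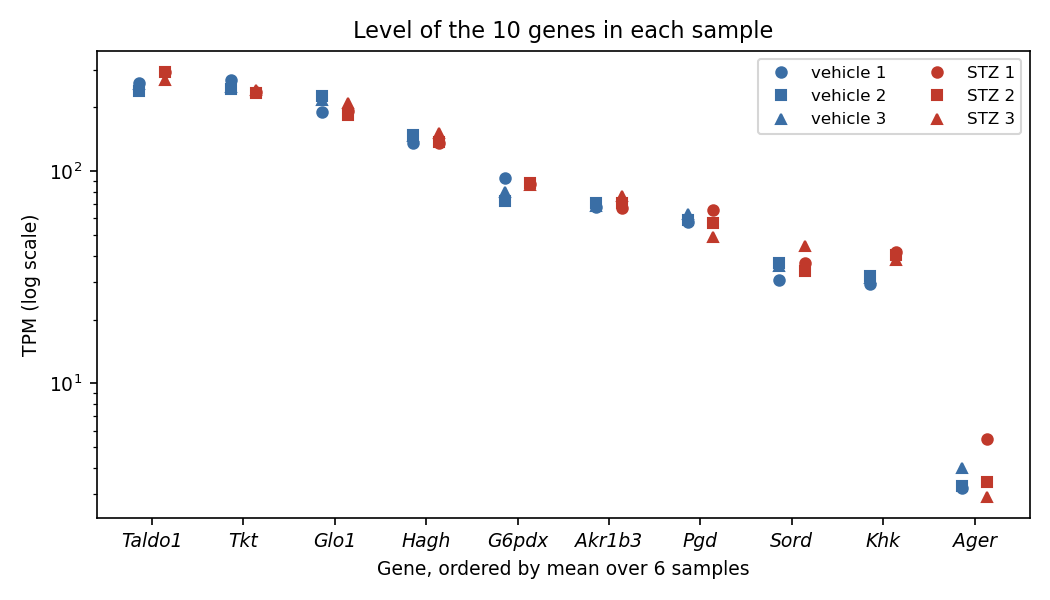
TPM (log scale) of the 10 genes in each of the 6 samples, with genes ordered by their mean, vehicle samples in blue and STZ samples in red, 1 symbol shape per replicate number. The means span 72.2-fold from Taldo1 to Ager and 7.57-fold from Taldo1 to Khk, and the 2 groups lie close together for each gene.

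The comparison of STZ with vehicle asked whether astrocyte transcripts of these routes differ in hyperglycemic mice. A gene was called where it differed by more than 1.5-fold with an adjusted p (edgeR, Benjamini-Hochberg) under 0.05. None of the 10 genes was called, where 0.0224% of all genes tested were, 0.00895% as higher and 0.0134% as lower in STZ. DESeq2 called 0 of the 10 and 1.05% of all genes. At an unadjusted p under 0.05 edgeR counted 2 of 10, Khk and Taldo1, both higher in STZ, against 11.3% of all genes (5.63% higher and 5.65% lower), and DESeq2 counted 1 of 10, Khk, against 10.3%. The groups did not overlap for 3 of 10 genes, Khk and Taldo1 with STZ above vehicle and Tkt with STZ below, against 18.5% of all genes (8.64% with STZ above and 9.85% with STZ below). These shares rest on 10 genes and are not set apart from the background by any test.

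**Figure D2:**
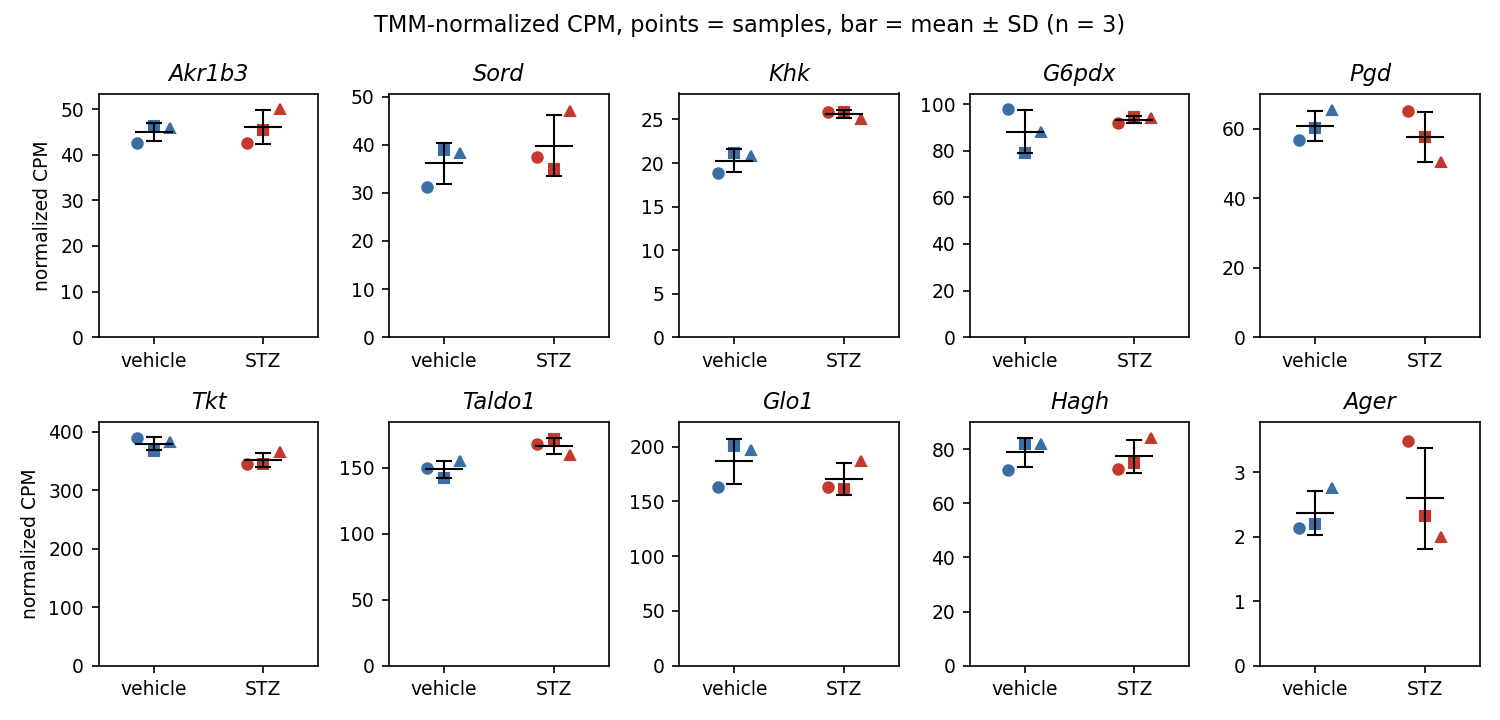
TMM-normalized CPM of the 10 genes in each sample (points; 1 symbol shape per replicate number), with the mean and SD of each group of 3 as bars, on axes that start at 0. The groups are separate for Khk (STZ above), Taldo1 (STZ above) and Tkt (STZ below), and overlap for the other 7 genes.

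Akr1b3 (NCBI gene 11677, chr6:34303930-34317489, minus strand) encodes aldose reductase, the first enzyme of the polyol route. Its TMM-normalized level was 42.6, 46.3 and 45.8 CPM in vehicle samples 1, 2 and 3 and 42.6, 45.4 and 49.97 CPM in STZ samples 1, 2 and 3. The lowest samples of both groups were level and the highest was STZ replicate 3, so the groups overlapped. The log2 fold change was 0.035 (SE 0.0832, 95% interval -0.16 to 0.23, edgeR's quasi-likelihood test, adjusted p = 0.901), and it fell below 0 without vehicle replicate 1 (-0.0058) or without STZ replicate 3 (-0.029). The related gene Akr1b10, an aldo-keto reductase that RefSeq also describes as an aldose reductase, held 170% of the counts of Akr1b3, and reads from a shared stretch could have been split between them. Akr1b10 differed little between groups (78.4 ± 2.12 CPM in vehicle and 76.0 ± 4.85 CPM in STZ samples, SD, n = 3, log2 fold change -0.044, edgeR adjusted p = 0.847). With Akr1b10, Akr1b8 and Akr1b7 added to Akr1b3, an alternative chosen after seeing the data, the log2 fold change was -0.0048.

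Sord (NCBI gene 20322, chr2:122234839-122265337, plus strand) encodes sorbitol dehydrogenase, which completes the polyol route. It was at 31.2, 39.0 and 38.2 CPM in the vehicle samples and at 37.5, 34.9 and 47.0 CPM in the STZ samples. Vehicle replicate 1 was the lowest and STZ replicate 3 the highest, and the remaining samples lay between them in mixed order. The log2 fold change of 0.14 (SE 0.136, 95% interval -0.18 to 0.46, edgeR adjusted p = 0.726) shrank to 0.0030 in the least favorable of the 6 fits that left out a sample each. Within a sample, Akr1b3 had 2.01 ± 0.157 times the TPM of Sord in vehicle and 1.88 ± 0.195 times in STZ samples (SD, n = 3), and the groups overlapped.

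Khk (NCBI gene 16548, chr5:30921436-30931248, plus strand) encodes ketohexokinase, which phosphorylates the fructose that the polyol route makes. Among the 10 genes it differed most between groups: 18.8, 21.2 and 20.8 CPM in the vehicle samples and 25.9, 25.8 and 25.1 CPM in the STZ samples. The means were 20.3 ± 1.28 and 25.6 ± 0.464 CPM (SD, n = 3), and the lowest STZ sample was 3.86 CPM above the highest vehicle sample. In TPM the samples stood at 29.3, 32.2 and 31.4 in vehicle and 41.5, 40.5 and 38.4 in STZ, again with no overlap. The log2 fold change was 0.34 (SE 0.0866, 95% interval 0.14 to 0.54), a 1.26-fold higher level (1.10 to 1.45), with an unadjusted p of 0.00513 and an adjusted p of 0.288 by edgeR's quasi-likelihood test over 22337 genes. DESeq2 gave an unadjusted p of 0.00384 and an adjusted p of 0.113. The fold lay under the minimum of 1.5 and the adjusted p over its threshold, so Khk was not called.

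The direction of Khk did not rest on 1 sample: leaving out each sample in turn gave log2 fold changes of 0.28 to 0.36, with edgeR's unadjusted p from 0.0104 to 0.0201 and adjusted p from 0.304 to 0.629. Endothelial markers were higher in the STZ samples, and the samples nearest to each other in their sum were vehicle replicate 3 (187 CPM) and STZ replicate 3 (181 CPM). These samples held Khk at 20.8 and 25.1 CPM, which is a single pair, and the part of endothelial cells in the difference was not tested.

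The listed genes of the polyol and fructose route gave no call. Of 12 genes listed, Akr1b3, Sord and Khk among them, 11 were tested (all but Akr1b7), with 6 higher and 5 lower in STZ. By edgeR 2 had an unadjusted p under 0.05, both higher and Khk among them, against 11.3% of all genes. The median log2 fold change was 0.035, against 0.012 over all genes tested. Akr1b8, a further aldo-keto reductase, was at 2.52 ± 0.277 CPM in vehicle and 3.37 ± 0.451 CPM in STZ samples (log2 fold change 0.42, edgeR adjusted p = 0.494). Its STZ samples lay above all vehicle samples, and it did not pass the test.

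G6pdx (NCBI gene 14381, chrX:74409483-74428880, minus strand) encodes glucose-6-phosphate dehydrogenase, the entry step of the pentose phosphate pathway. The vehicle samples spread widely, at 97.7, 78.9 and 88.1 CPM, and the STZ samples, at 91.7, 94.4 and 94.1 CPM, lay inside that spread. On the log2 scale the difference was 0.082 (SE 0.0870, 95% interval -0.12 to 0.28, edgeR adjusted p = 0.755), and -0.0060 without vehicle replicate 2. The gene lies inside the span of Ikbkg on the opposite strand, and reads of both could be mixed, because no source used here says whether counting was strand-specific. Ikbkg held between 1156 and 1419 counts per sample and was lower in STZ (log2 fold change -0.28, edgeR unadjusted p = 0.0207, adjusted p = 0.366). With the counts of Ikbkg added to G6pdx, an alternative chosen after seeing the data, the log2 fold change was 0.011. The autosomal copy G6pd2 had 2 counts over all samples.

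Pgd (NCBI gene 110208, chr4:149149991-149166705, minus strand) encodes 6-phosphogluconate dehydrogenase, the second step that yields NADPH. It stood at 56.7, 60.2 and 65.4 CPM in vehicle and at 65.0, 57.5 and 50.4 CPM in STZ samples. The highest and the lowest STZ sample were near or beyond the ends of the vehicle range, so the groups overlapped (log2 fold change -0.076, SE 0.106, 95% interval -0.32 to 0.17, edgeR adjusted p = 0.821), and the value was 0.011 without STZ replicate 3. The ratio of G6pdx to Pgd TPM was 1.37 ± 0.214 in vehicle and 1.54 ± 0.214 in STZ samples (SD, n = 3), with overlap. Of 6 genes listed for the oxidative branch 5 were tested, 3 higher and 2 lower in STZ. None had an unadjusted p under 0.05 by edgeR or DESeq2, against 11.3% and 10.3% of all genes. Pgls, the lactonase between these dehydrogenases, had a log2 fold change of 0.083 (unadjusted p = 0.483) and H6pd, the dehydrogenase of the endoplasmic reticulum, one of -0.21 (unadjusted p = 0.463, both by edgeR).

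Tkt (NCBI gene 21881, chr14:30549131-30574724, plus strand) encodes transketolase, the thiamine-dependent enzyme of the non-oxidative branch. Its values were 389, 368 and 383 CPM in the vehicle samples and 345, 345 and 365 CPM in the STZ samples. All STZ samples lay below all vehicle samples, with a gap of 3.004 CPM between the nearest. This amounts to a log2 fold change of -0.11 (SE 0.0687, 95% interval -0.27 to 0.048, edgeR unadjusted p = 0.143, adjusted p = 0.564), which ran from -0.15 to -0.098 when each sample was left out in turn.

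Taldo1 (NCBI gene 21351, chr7:141392160-141402976, plus strand) encodes transaldolase, the other carbon-transferring enzyme of that branch. It was at 149.9, 142 and 155 CPM in vehicle and at 168, 172 and 160.0 CPM in STZ samples. Here the STZ samples lay above the vehicle samples, the nearest being 4.68 CPM apart. The 1.12-fold higher level (log2 fold change 0.16, SE 0.0682, 95% interval 0.00091 to 0.32) had an unadjusted p of 0.0490 and an adjusted p of 0.441 by edgeR. DESeq2 gave an unadjusted p of 0.0990, and edgeR's p ranged from 0.0402 to 0.202 when each sample was left out, so even the unadjusted count of Taldo1 depends on the tool and on single samples.

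Since transketolase and transaldolase lay on opposite sides, their ratio within each sample was also taken. The ratio of Tkt to Taldo1 TPM was 1.03, 1.02 and 0.976 in vehicle and 0.810, 0.794 and 0.902 in STZ samples. The STZ samples were below all vehicle samples, at 1.01 ± 0.0278 and 0.835 ± 0.0583 (SD, n = 3), and the ratio of these means was 0.829, or 0.796 to 0.849 with each sample left out. G6pdx relative to Tkt, the first enzyme of the oxidative branch against one of the other branch, was 0.347, 0.296 and 0.317 in vehicle and 0.367, 0.378 and 0.356 in STZ samples, with STZ above in each. The ratios follow from the gene values already given and were not tested. With Tkt lower and Taldo1 higher in every STZ sample, the ratio of Tkt to Taldo1 had to separate the groups, with any sample left out as well. Its separation therefore adds nothing to that of the 2 genes.

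**Figure D3:**
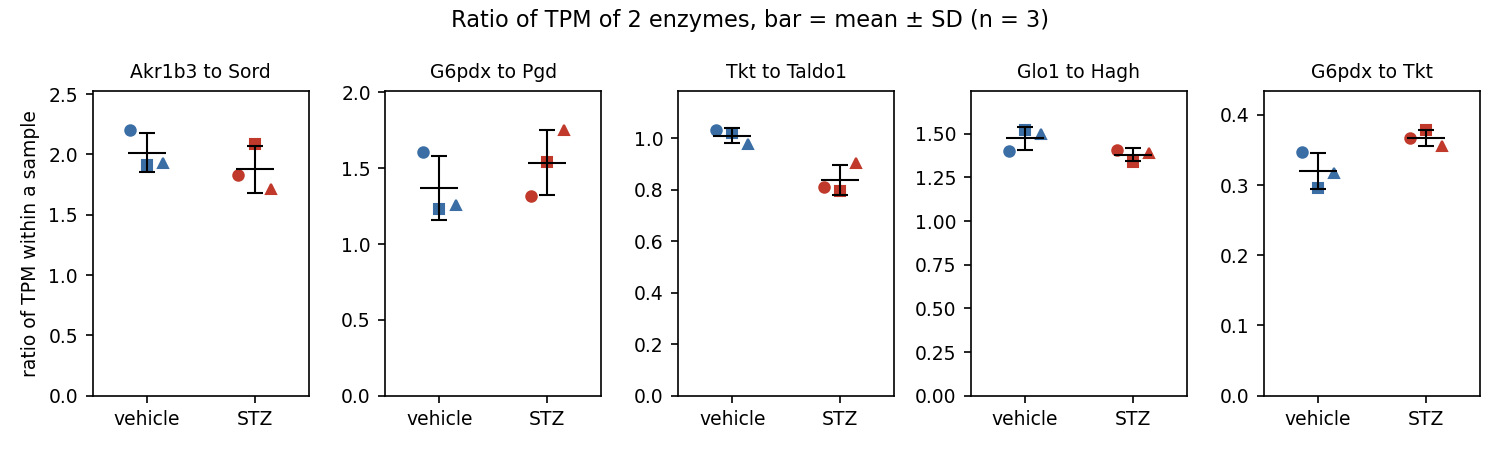
Ratio of the TPM of 2 enzymes within each sample (points; 1 symbol shape per replicate number) with the mean and SD of each group of 3, on axes that start at 0. The STZ samples are below the vehicle samples for Tkt to Taldo1 and above them for G6pdx to Tkt, and the groups overlap for Akr1b3 to Sord, G6pdx to Pgd and Glo1 to Hagh.

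Of 11 genes listed for the non-oxidative branch 9 were tested, 4 higher and 5 lower in STZ with a median log2 fold change of -0.041. By edgeR 2 of them, Taldo1 and Dera, had an unadjusted p under 0.05, against 11.3% of all genes. Dera, which cleaves deoxyribose 5-phosphate, was at 23.1, 20.8 and 23.9 CPM in vehicle and 25.9, 25.7 and 26.6 CPM in STZ samples (log2 fold change 0.21, edgeR unadjusted p = 0.0472, adjusted p = 0.438), without overlap. Rpia, the ribose 5-phosphate isomerase, was low at 0.697 ± 0.139 and 0.557 ± 0.107 CPM (log2 fold change -0.32, edgeR unadjusted p = 0.304). The transketolase-like genes Tktl1 and Tktl2 had at most 18 counts in a sample and were not tested.

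Glo1 (NCBI gene 109801, chr17:30592861-30612659, minus strand) encodes glyoxalase I, which acts on the adduct of methylglyoxal and glutathione. It stood at 163, 200.2 and 197 CPM in the vehicle samples and at 163, 161 and 187 CPM in the STZ samples. Vehicle replicate 1 was level with the low STZ samples and far from the other vehicle samples. Between groups it differed by -0.13 on the log2 scale (SE 0.103, 95% interval -0.37 to 0.11, edgeR adjusted p = 0.657). Without vehicle replicate 1 it was -0.22 with an unadjusted p of 0.0382 by edgeR, the lowest of the 6 fits that left out a sample.

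Hagh (NCBI gene 14651, chr17:24839781-24864450, plus strand) encodes glyoxalase II, which releases D-lactate and returns the glutathione. The vehicle samples were at 72.4, 81.9 and 82.0 CPM and the STZ samples at 72.8, 74.99 and 84.2 CPM. Replicate 1 was the lowest of its group on both sides, and the groups overlapped over nearly their whole range (log2 fold change -0.026, SE 0.0859, 95% interval -0.23 to 0.17, edgeR adjusted p = 0.934). The value was 0.015 without STZ replicate 1 and 0.0046 with the counts of Fahd1, which overlaps Hagh by 1407 bases on the opposite strand, added to it after seeing the data. The ratio of Glo1 to Hagh TPM was 1.47 ± 0.0652 in vehicle and 1.38 ± 0.0376 in STZ samples (SD, n = 3), with overlap.

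Vehicle replicates 2 and 3 and STZ replicate 3 had the highest summed choroid plexus and ependymal markers, 15577 to 17548 CPM against 5917 to 11075 CPM in the other samples. Most of this sum was Ttr (5487, 15446 and 16529 CPM in vehicle and 10401, 8571 and 14740.2 CPM in STZ samples). Ttr, Folr1, Kl, Kcnj13 and Otx2 had those 3 samples highest, and Aqp1 did not. The ependymal markers Foxj1, Ccdc153 and Tmem212 did not either, and were highest in STZ replicate 1 (24.5, 72.9 and 51.8 CPM). Vehicle replicates 2 and 3 and STZ replicate 3 were also the highest for Akr1b3, Sord, Glo1 and Hagh, that is for 4 of the 10 genes. Of all genes tested, 8.19% had those 3 samples highest. Glo1 was at 187 CPM or more in them and at 163 CPM or less in the others. Hagh was at 81.9 CPM or more in them and at 74.99 CPM or less in the others. For Akr1b3 and Sord the margin was narrow. The lowest of the 3 samples stood at 45.8 and 38.2 CPM, against 45.4 and 37.5 CPM in the highest of the others. For Khk, Taldo1 and Tkt, the genes whose groups did not overlap, the order differed from this. This was noticed after the values were seen, and the part of choroid plexus cells in the levels of the 4 genes was not tested.

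The listed genes of methylglyoxal defence and deglycation gave no call either. Of 15 listed, Glo1 and Hagh among them, 14 were tested, 5 higher and 9 lower in STZ with a median log2 fold change of -0.016. Aldh2, the mitochondrial aldehyde dehydrogenase, was at 280.2, 332 and 334 CPM in vehicle and 281, 237 and 250.02 CPM in STZ samples, where STZ replicate 1 reached the lowest vehicle sample (log2 fold change -0.30, edgeR unadjusted p = 0.0189, adjusted p = 0.356). Esd, which hydrolyses S-formylglutathione, was at 68.2 ± 8.73 and 76.9 ± 3.004 CPM (SD, n = 3, log2 fold change 0.17, edgeR unadjusted p = 0.121).

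Ager (NCBI gene 11596, chr17:34597460-34600937, plus strand) encodes RAGE, the cell surface receptor that binds advanced glycation end products and S100 proteins. Its counts were low, at 2.13, 2.197 and 2.76 CPM in vehicle and 3.48, 2.32 and 1.99 CPM in STZ samples. STZ samples were both the highest and the lowest of all, so the groups overlapped. The log2 fold change of 0.14 (SE 0.272, 95% interval -0.50 to 0.77, edgeR adjusted p = 0.878) turned to -0.13 without STZ replicate 1. The interval, 0.708-fold to 1.71-fold, leaves a difference of over 1.5-fold undecided, which it did not for the other 9 genes.

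**Figure D4:**
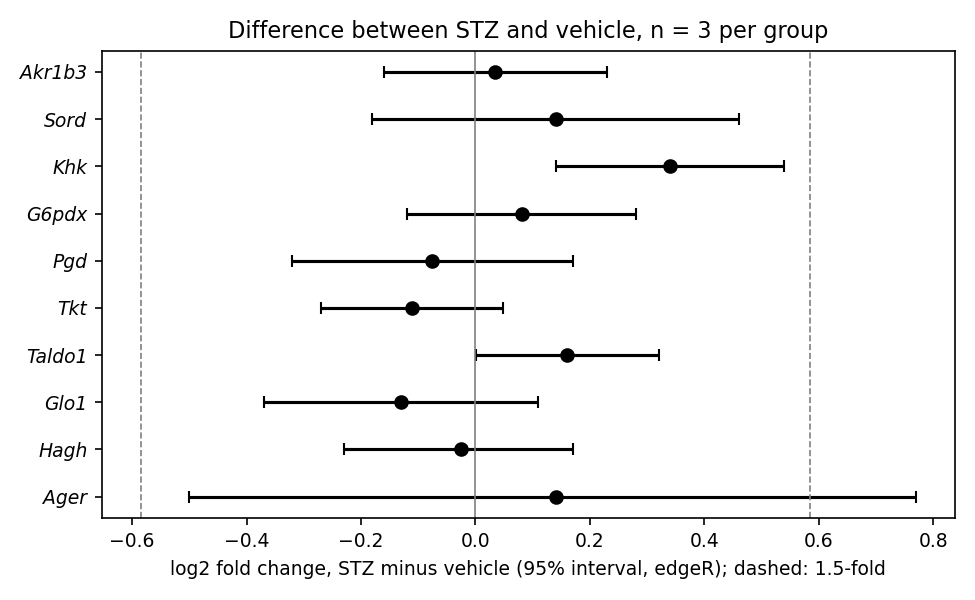
Log2 fold change between STZ and vehicle (points) with its 95% interval from edgeR (bars) for the 10 genes, n = 3 samples per group; the dashed lines mark a 1.5-fold change in either direction. The interval excludes 0 for Khk and, barely, for Taldo1, lies inside the dashed lines for 9 genes and reaches past the upper line for Ager.

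The size of the differences was small throughout. Of the 10 genes 6 were higher and 4 lower in STZ, with log2 fold changes from -0.13 for Glo1 to 0.34 for Khk and a median of 0.058, and 9 lay within 0.20 of 0. The median was 0.0071 without STZ replicate 3, 0.018 without vehicle replicate 1, 0.019 without vehicle replicate 2 and 0.0076 with overlapping or related genes added. The median size without regard to sign was 0.12, against 0.17 over all genes tested and 0.11 over the 7078 genes with a mean level between those of the lowest and the highest of the 9 genes other than Ager (22.9 to 366 CPM). In that level range 16.0% of genes had an unadjusted p under 0.05.

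Of 20 genes tested that encode receptors of advanced glycation end products or partners of RAGE, 16 were higher and 4 lower in STZ, with a median log2 fold change of 0.21, where 51.9% of all genes tested were higher. By edgeR 0 were called, with 8 at an unadjusted p under 0.05 (7 higher and 1 lower), against 11.3% of all genes. DESeq2 called 2, against 1.05% of all genes, and both were S100 proteins, a family of calcium-binding proteins. S100a4 was at 4.03, 3.18 and 5.67 CPM in vehicle and 7.26, 14.1 and 7.85 CPM in STZ samples (log2 fold change 1.18, adjusted p = 0.301 by edgeR and 0.00813 by DESeq2). S100a6 was at 23.0, 21.7 and 32.6 CPM in vehicle and 42.0, 51.2 and 32.7 CPM in STZ samples (log2 fold change 0.71, adjusted p = 0.311 by edgeR and 0.0323 by DESeq2). For both, every STZ sample was above every vehicle sample, though for S100a6 STZ replicate 3 and vehicle replicate 3 were nearly level. Most endothelial, pericyte and smooth muscle, and neutrophil and mast cell markers were also higher in STZ. S100a8 and S100a9 of this list are neutrophil markers themselves, and their groups overlapped (edgeR unadjusted p = 0.101 and 0.116). Within the marker lists the differences were uneven. Among pericyte and smooth muscle markers the log2 fold change was -0.081 for Pdgfrb and 2.65 for Tagln. The mast cell markers Mcpt4, Cma1 and Tpsb2 had log2 fold changes of 3.44, 3.28 and 2.32, with every STZ sample above every vehicle sample. The part of these cells in the levels of S100a4 and S100a6 was not tested.

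Prkcsh, the glucosidase II beta subunit that also carries the name 80K-H as a binding protein of glycation end products, had the smallest p of that list by edgeR, though not by DESeq2, where S100a4 had a smaller one. It was at 185, 179 and 188 CPM in vehicle and 146, 149 and 149.7 CPM in STZ samples, a clear gap between groups. The log2 fold change of -0.31 had an adjusted p of 0.209 by edgeR and 0.0249 by DESeq2, and the fold was under the minimum of 1.5 in either case.

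**Figure D5:**
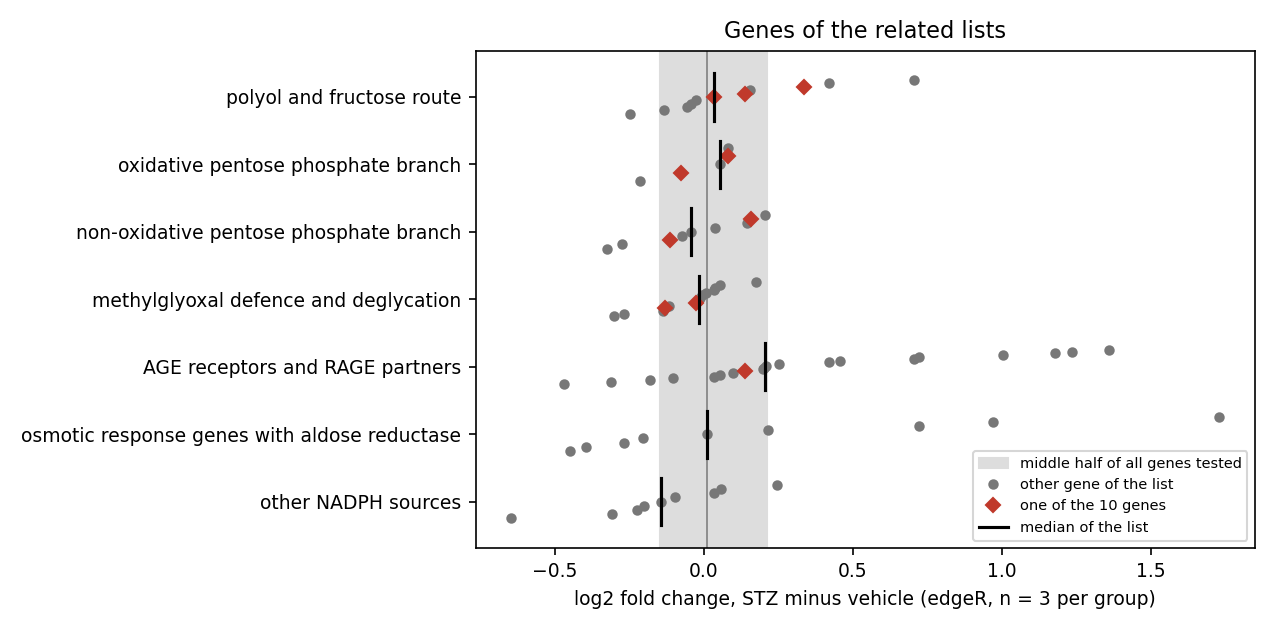
Log2 fold change between STZ and vehicle (edgeR, n = 3 per group) of each tested gene of the 7 related lists; red diamonds are the 10 genes, grey points other genes, black bars list medians, and the grey band spans the 25th to 75th percentile of all genes tested (-0.15 to 0.21). Of the 10 genes only Khk lies outside the band, and the list of glycation end product receptors and RAGE partners has the highest median, at 0.21.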

How the data were processed

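Sorted tdTomato-positive cells were profiled by RNA sequencing in 3 vehicle and 3 STZ samples, grouped by the sample titles. STZ was given at 150 mg/kg. The labels name a SMART-Seq mRNA kit. The paper's methods name TruSeq v2 as well. The submitters' processing notes list bcl2fastq 2.20.0, Trimmomatic 0.38, HISAT2 2.1.0, SAMtools 1.9, StringTie 2.1.3b and the build mm10. The annotation release and strand setting are not given in the sources used here. The deposited table holds, per gene and sample, a whole-number read count that was not normalized. The deposited FPKM values scale fragments by transcript length and by library size. The deposited TPM values were scaled by the authors to nearly the same sum in every sample.

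The 22337 genes with 1 or more counts in each sample entered a two-sided quasi-likelihood test in edgeR 4.0.16 (R 4.3.3) with TMM factors, the group alone in the model and Benjamini-Hochberg adjustment. A call needed a fold over 1.5 and an adjusted p below 0.05. CPM are TMM-normalized, and TPM were used for levels between genes. Groups that do not overlap were read from TMM-normalized CPM, and the same 3 genes were found in TPM and with DESeq2's size factors. The script was tested on simulated counts. Alternatives were DESeq2 1.42.0, its size factors in edgeR, no filter, filterByExpr, the replicate block, robust fitting, limma 3.58.1 on log2 TPM with a pseudocount of 1 or of 0.1, other call rules, FPKM for levels, and leaving out each sample. Members, lists and motifs were chosen with earlier results of these data known. From each related list the text names the 2 genes other than members with the smallest p and every gene called by edgeR or DESeq2, except 1 gene that is not reported here. Nfat5 and Slc6a12 were chosen after their values were seen. Gene positions are those of RefSeq on GRCm38.p6, the assembly behind mm10. Depth was 52529048 to 58749115 counts per sample, and 3 counts correspond to 0.0511 to 0.0571 CPM, a limit that covers counting error only. Groups of 3 were too small to test for outlying samples. P-values measure the spread between pools of 3 mice.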

Additional observations from a re-analysis of the deposited data

How the results depend on the processing

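None of the 10 genes was called in any of the fits run, and Khk and Tkt kept their direction in all of them, as did Sord, Taldo1 and Glo1. Without a fold minimum, 2 of the 10 had an unadjusted p under 0.05. Small differences changed sign when a sample was left out: the log2 fold change ranged from -0.029 to 0.087 for Akr1b3, from -0.0060 to 0.16 for G6pdx, from -0.17 to 0.011 for Pgd, from -0.092 to 0.015 for Hagh and from -0.13 to 0.30 for Ager. Adding overlapping or related genes, chosen after seeing the data, gave -0.0048 for Akr1b3, 0.0046 for Hagh and 0.011 for G6pdx. Of 67 other genes of the related lists tested, DESeq2 called 5 (S100a4, S100a6, Slc38a2, Slc6a6 and Nnt) and edgeR 0, and the cause of this difference was not tested. Over all genes, edgeR called 5 and DESeq2 234, robust fitting 10, and no more than 1 was called with any sample left out. Replicate numbers did not pair the samples. After each gene's group mean was subtracted, the deviations of same-numbered samples correlated at -0.10, -0.16 and -0.18. With the replicate block, edgeR called 0 of the 10 genes and 0 of all genes, Khk had an unadjusted p of 0.0183, and the median of the 10 was 0.060, while it ranged from 0.0071 to 0.060 with each sample left out and was 0.0076 with overlapping or related genes added. Ager, with the lowest level, had the widest interval, and having 3 samples per group limits the precision of all 10.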

Other observations

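Aldose reductase belongs to the genes that cells use against hypertonic stress, so the other genes of that response were listed as well. Of 9 genes tested 5 were higher and 4 lower in STZ, with a median log2 fold change of 0.010. The tonicity factor Nfat5 was at 107, 88.9 and 88.0 CPM in vehicle and 79.6, 88.1 and 68.7 CPM in STZ samples. Among its known targets, Slc6a6, the taurine transporter, was at 24.7, 25.6 and 47.1 CPM in vehicle and 74.2, 64.4 and 52.3 CPM in STZ samples (log2 fold change 0.97, adjusted p = 0.301 by edgeR and 0.00524 by DESeq2), and the chaperone Hspa4l was at 89.8, 94.5 and 98.3 CPM in vehicle and 66.0, 72.6 and 76.3 CPM in STZ samples (log2 fold change -0.40, adjusted p = 0.208 by edgeR and 0.0177 by DESeq2, under the fold minimum). Slc38a2, a transporter of small neutral amino acids, stood at 65.4, 67.7 and 78.5 CPM in vehicle and 97.7, 103 and 149 CPM in STZ samples (log2 fold change 0.72, adjusted p = 0.258 by edgeR and 0.00506 by DESeq2). Slc6a12, the betaine transporter, had the largest log2 fold change of the list, 1.73, from low levels of 0.186, 0.154 and 0.419 CPM in vehicle and 0.214, 1.24 and 1.11 CPM in STZ samples, which overlapped (edgeR unadjusted p = 0.0358, adjusted p = 0.411). DESeq2 called Slc6a6 and Slc38a2, 2 of the 9, against 1.05% of all genes, and edgeR 0 of the 9, with 5 at an unadjusted p under 0.05, against 11.3% of all genes. Endothelial markers were also higher in STZ (53.4 to 187 CPM in vehicle and 181 to 333 CPM in STZ samples), and their part in the level of Slc6a6 was not tested.

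Other enzymes that supply NADPH were listed beside the pentose phosphate pathway. Of 9 genes tested 3 were higher and 6 lower in STZ, with a median log2 fold change of -0.14, where 51.9% of all genes tested were higher. By edgeR 2 of the 9 had an unadjusted p under 0.05, against 11.3% of all genes. Nnt, the mitochondrial transhydrogenase, was at 51.3, 63.3 and 55.0 CPM in vehicle and 35.5, 35.5 and 37.3 CPM in STZ samples, a wide gap between groups (log2 fold change -0.65, adjusted p = 0.138 by edgeR and 4.1e-05 by DESeq2). DESeq2 called Nnt, 1 of the 9, against 1.05% of all genes, and edgeR called 0 of the 9. Part of Nnt is deleted in the C57BL/6J substrain, and the labels do not give the Nnt genotype of the pooled mice. Aldh1l1, whose promoter drives the recombinase and whose enzyme makes NADPH from formyl-tetrahydrofolate, was at 485 CPM in vehicle and 415 CPM in STZ samples (log2 fold change -0.22, edgeR unadjusted p = 0.0296, adjusted p = 0.398).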
